A study of Saccharomyces cerevisiae with 12 samples.

Results

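The genes measured closest to the ends of the chromosome arms of Saccharomyces cerevisiae were examined in cells lacking ZTA1, which encodes the yeast zeta-crystallin, an NADPH-dependent quinone reductase. Systematic names number the open reading frames of an arm outward from the centromere, so the 8 measured genes with the highest numbers on an arm are the outermost. Genes of 15 families named by their symbols (COS, PAU, DAN, TIR, HXT, SNZ, SNO, IMD, GEX, YPS, PHO, FIT, ARN, ENB and MAL) and names with a suffix were left out first, and the left arm of chromosome VII was not used. The remaining 31 arms gave 248 of the 5594 genes tested: the outermost 2 of each arm (62 genes) and the other 6 (186 genes). All 248 members entered the fit, since no filter on low values was applied, and 71 of them had no standard symbol.

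The study hybridised RNA of the ∆zta1 strain against RNA of the FY834α wild type on 12 two-colour arrays. In 3 pairs of cultures both strains had received 10 mM H2O2 for 30 min, and in 3 pairs both were untreated. All cultures grew exponentially in rich YPD medium at 30 °C, and every pair has 2 arrays of opposite dye orientation. One deletion strain stands for the genotype, how many clones it comprised is not given in the sources used here, and no array set treated against untreated cells. Each deposited value is a log2 ratio of ∆zta1 over wild type, so a negative value means less signal in ∆zta1. ZTA1 itself was at -4.96, -4.56 and -4.58 in the H2O2-treated pairs, against -5.84, -4.32 and -5.73 in the untreated pairs, far below 0 in every pair. The array medians lay between -0.0172 and 0.0165, and untreated replicate 2 held the value farthest from 0 of the 6 pairs for 75 of the 248 members (30.2%) and for 25.7% of the other genes. Among the outermost 2 alone it did so for 14 of 62, as did H2O2 replicate 2, and untreated replicate 3 did so for 20 of 62. The deposited ratios carry no signal level, so neither expression of a member nor the mating type of the cells could be checked.

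Yeast chromosomes end in telomeric repeats followed inward, at many ends, by Y′ elements, long repeats that encode helicase-like proteins, and then by an X element. The regions next to the telomeres can be held silent by the Sir proteins, which deacetylate histones and spread inward from the telomere. These regions also hold gene families used in particular conditions, such as sugar use, vitamin synthesis, adhesion and transport, and many of their genes have near-identical copies at other ends.

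Most of the outermost genes had ratios close to 0, and 1 of them, YIR042C, was lower in ∆zta1 in both treatments. Adjusted p-values here come from limma fitted to the 6 pair means and adjusted by the Benjamini-Hochberg method over all 5594 genes. At an adjusted p under 0.05 in limma, 1 of the 248 members passed in H2O2-treated cells, where 0.215% of all genes passed (12 genes). In untreated cells 1 of 248 passed, against 0.197% of all genes (11 genes), and for the mean of both treatments 1 of 248 passed, against 0.286% (16 genes). The gene was YIR042C each time, so the outermost 2 of the arms gave 1 of 62 and the other 6 gave 0 of 186 in each of these comparisons. For the difference between H2O2-treated and untreated cells 0 members passed in limma, where 0% of all genes did, and 3 members had an unadjusted p under 0.05, against 1.27% of all genes. These p-values rest on the spread between the 3 pairs of cultures within each treatment, pooled over both treatments and drawn by limma towards that of other genes. An outlying pair in 1 treatment can therefore change the p-values of the other. The design text describes the pairs as biological replicates.

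YIR042C, the last measured gene of the right arm of chromosome IX, has no assigned function. Its ratio was -0.71, -0.51 and -0.61 in the 3 H2O2 pairs, and -0.82, -0.64 and -0.74 in the 3 untreated pairs. All 6 pairs and all 12 arrays lay below 0, with single arrays between -0.85 and -0.39. In H2O2-treated cells it averaged -0.61 ± 0.10 (SD, n = 3), which is 1.53-fold lower in ∆zta1 than in wild type, with a limma standard error of 0.046 and an adjusted p of 0.00072. In untreated cells it averaged -0.73 ± 0.092 (SD, n = 3), 1.66-fold lower, with a limma adjusted p of 0.00013. The 2 treatments overlapped, and their difference of 0.12 ± 0.065 (SE) did not pass in limma (unadjusted p = 0.0999, adjusted p = 0.999). In RNA from whole cultures, fewer cells with the transcript and less transcript per cell cannot be told apart. The ratio was alike in both dye orientations: in H2O2-treated cells it was -0.60 where Cy5 labelled ∆zta1 and -0.62 where Cy3 did, and in untreated cells -0.74 and -0.72. Of all 5594 genes, YIR042C had the 4th lowest mean ratio in either treatment.

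The genes inward of YIR042C did not share its ratio. PAU15, a seripauperin of the PAU family left out by name, is the next measured gene and averaged 0.013 in H2O2-treated cells and -0.0056 in untreated cells. YPS6, which encodes a putative aspartic protease of the cell surface and was also left out by name, came next. It was at -0.16, -0.22 and -0.17 in the H2O2-treated pairs, against -0.22, -0.10 and -0.18 in the untreated pairs. Its means were -0.18 ± 0.035 and -0.17 ± 0.059 (SD, n = 3 each), and all 6 pairs lay below 0. YPS6 did not pass in limma in either treatment (adjusted p = 0.141 in H2O2-treated cells and 0.283 in untreated cells). Over both treatments it passed in limma, with a mean ratio of -0.17 and an adjusted p of 0.018. The other 7 members of this arm carry varied roles, among them GTT1, a glutathione transferase, HYR1, a thiol peroxidase that senses peroxide, and DAL3, an enzyme of allantoin breakdown. Their H2O2 means lay between -0.061 and 0.042. In untreated cells LYS1, which encodes the last enzyme of lysine synthesis, averaged -0.35, and its pairs read 0.0088, -0.93 and -0.14, so that its mean rests on replicate 2. The other members of the arm averaged between -0.10 and 0.059 there. DAL7, just beyond the 8 members of this arm, averaged 0.064 in H2O2-treated cells and -0.019 in untreated cells.

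**Figure D1:**
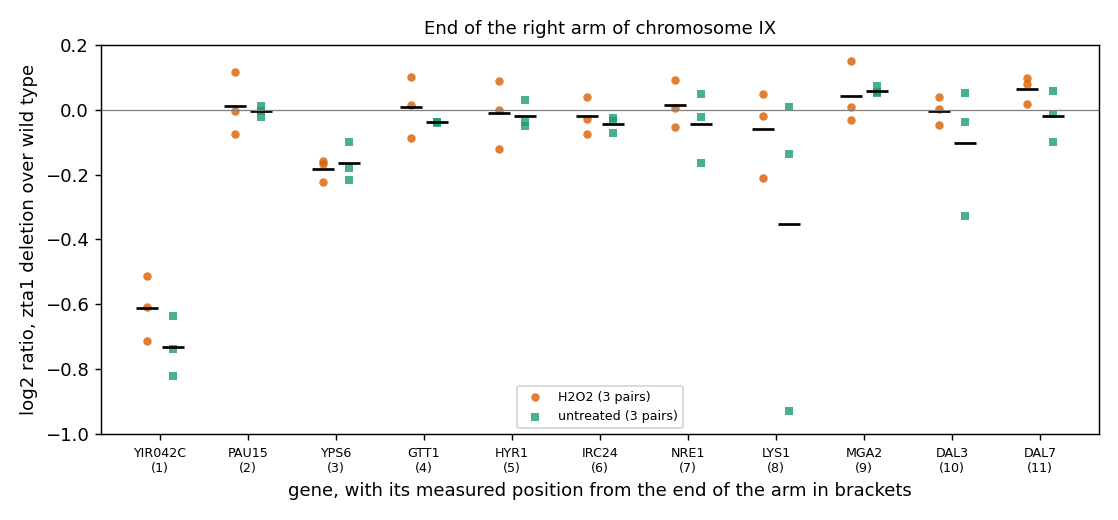
Each point is the log2 ratio (vertical axis, ∆zta1 over wild type) in 1 pair of cultures, with H2O2 pairs left and untreated pairs right for each gene, and each bar is the mean of 3 pairs. The horizontal axis gives the genes of the right arm of chromosome IX from the end inward, with the position among all measured genes in brackets; PAU15 and YPS6 are no members and DAL7 is the first gene inside the 8 members. YIR042C is below -0.5 in all 6 pairs, and the lowest LYS1 point is untreated replicate 2 at -0.93.

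Taken by position, the outermost 2 genes of the arms had a median of their 3-pair means of 0.0023 in H2O2-treated cells and 0.018 in untreated cells. The H2O2 value depended on how the genes were taken: it was 0.072 when 8 genes an arm were taken before families were left out by name, and 0.077 for the outermost gene alone. Pair by pair, their median ratio was 0.038, 0.0073 and 0.0019 in the H2O2 pairs and 0.014, -0.052 and 0.064 in the untreated pairs. The other 6 genes of each arm had medians of -0.0080, -0.025 and -0.018 in the H2O2 pairs and 0.0030, -0.025 and -0.0043 in the untreated pairs. The outermost 2 were thus above the other 6 in all 3 H2O2 pairs, by 0.046, 0.033 and 0.019, and in 2 of 3 untreated pairs, by 0.011 and 0.068, with -0.027 in replicate 2. In H2O2-treated cells the mean over 3 pairs was above 0 for 31 of the 62 outermost genes (50%) and 71 of the 186 others (38.2%). Of all genes tested 47.9% were above 0, with a median of -0.0023. The outermost 2 were thus near all genes there, and the other 6 lay below them. In untreated cells 37 of 62 (59.7%) and 78 of 186 (41.9%) were above 0, against 50.6% of all genes, whose median was 0.0005.

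The range from the lower to the upper quartile of the mean ratios of the outermost 2 was 0.131 in H2O2-treated cells, against 0.0775 for the other 6 genes and 0.0639 for genes that are not members. In untreated cells these ranges were 0.0791, 0.0666 and 0.0465. For the 43 outermost genes that are not Y′ genes the range was 0.0765 in H2O2-treated cells, about that of the other 6 genes, and 0.0959 in untreated cells. An unadjusted p under 0.05 in limma was reached in H2O2-treated cells by 21 of the 62 outermost genes (33.9%) and by 22 of the 186 others (11.8%), where 8.29% of all genes reached it. In untreated cells the counts were 12 of 62 (19.4%) and 12 of 186 (6.45%), against 3.65% of all genes, and over both treatments 21 of 62 and 25 of 186, against 9.46%. Of the 21 outermost genes in H2O2-treated cells, 16 were higher in ∆zta1, where 3.06% of all genes were, and 5 were lower, where 5.24% were. Of the 12 in untreated cells, 4 were higher, against 0.93% of all genes, and 8 were lower, against 2.72%. These counts moved with 1 pair: without untreated replicate 2 they were 27 and 22 of 62 in H2O2-treated and untreated cells, with 10.4% and 2.29% of all genes.

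**Figure D2:**
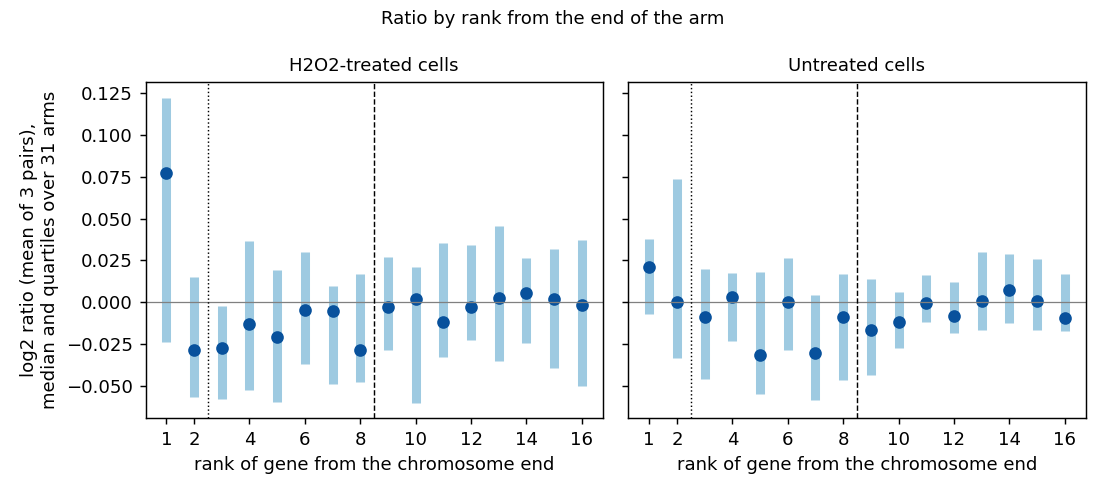
Points are the median and bars the quartiles over 31 arms of the mean log2 ratio of 3 pairs (vertical axis), by the rank of the gene from the chromosome end (horizontal axis), with H2O2-treated cells in the left panel and untreated cells in the right. The dotted line parts the outermost 2 from the other 6, and the dashed line parts the members from ranks 9 to 16. The first rank has the highest median in both panels, 0.077 and 0.021.

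By rank, the first rank had a median of 0.077 in H2O2-treated cells and 0.021 in untreated cells. The second rank, just inside the outermost 2, had medians of -0.029 in H2O2-treated cells and 0.00002 in untreated cells, and the third rank, just outside, had -0.027 and -0.0090. At the inner limit of the members, rank 8 had -0.028 and -0.0089, and rank 9, the first beyond it, had -0.0030 and -0.017. The 248 genes at ranks 9 to 16 had medians of 0.0014 in H2O2-treated cells and -0.0044 in untreated cells. Of ranks 1 to 9, the first had the highest median in either treatment.

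The outermost genes with a positive ratio in H2O2-treated cells were mostly those of the Y′ elements, whose products resemble helicases. All 23 listed Y′ genes were measured and were members, and 19 of them were in the outermost 2: 16 at the first rank of 31 arms and 3 at the second. Each of these 19 was above 0 in each of the 3 H2O2 pairs, where 14.2% of all genes were, and their medians in those pairs were 0.12, 0.10 and 0.099. In untreated replicates 1 and 3 all 19 were again above 0, with medians of 0.078 and 0.14, while in untreated replicate 2 all 19 were below 0, with a median of -0.084. These 19 Y′ genes thus moved as a block from pair to pair, up in 5 pairs and down in 1.

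None of the 19 passed an adjusted p under 0.05 in limma in either treatment. An unadjusted p under 0.05 was reached by 13 in H2O2-treated cells (68.4%), against 8.29% of all genes, and by 1 in untreated cells (5.26%), against 3.65%. The median of their mean ratios was 0.107 in H2O2-treated cells and 0.043 in untreated cells, where 18 of 19 were above 0. Their spread over pairs was narrow in H2O2-treated cells (median SD 0.015, n = 3) and wide in untreated cells (median SD 0.12, n = 3). Without untreated replicate 2 the untreated median was 0.107 as well, 14 of the 19 had an unadjusted p under 0.05 there, against 2.29% of all genes, and 17 had one in H2O2-treated cells, against 10.4%. These genes are not separate measurements: 14 of the 19 share a sequence record with another of them, which leaves 8 distinct records, and how far near-identical copies at other ends add to the signal of one probe was not tested. By dye, the H2O2 median was 0.118 with ∆zta1 in Cy5 and 0.095 in Cy3, and the untreated median was 0.064 in Cy5 and 0.0026 in Cy3. Single genes of the 19 differed far more between the dyes. In H2O2-treated cells they ranged from -0.19 to 0.16 in Cy5 (17 above 0) and from 0.041 to 0.44 in Cy3 (19 above 0). In untreated cells they ranged from -0.65 to 0.15 in Cy5 (16 above 0) and from -0.040 to 0.70 in Cy3 (11 above 0).

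**Figure D3:**
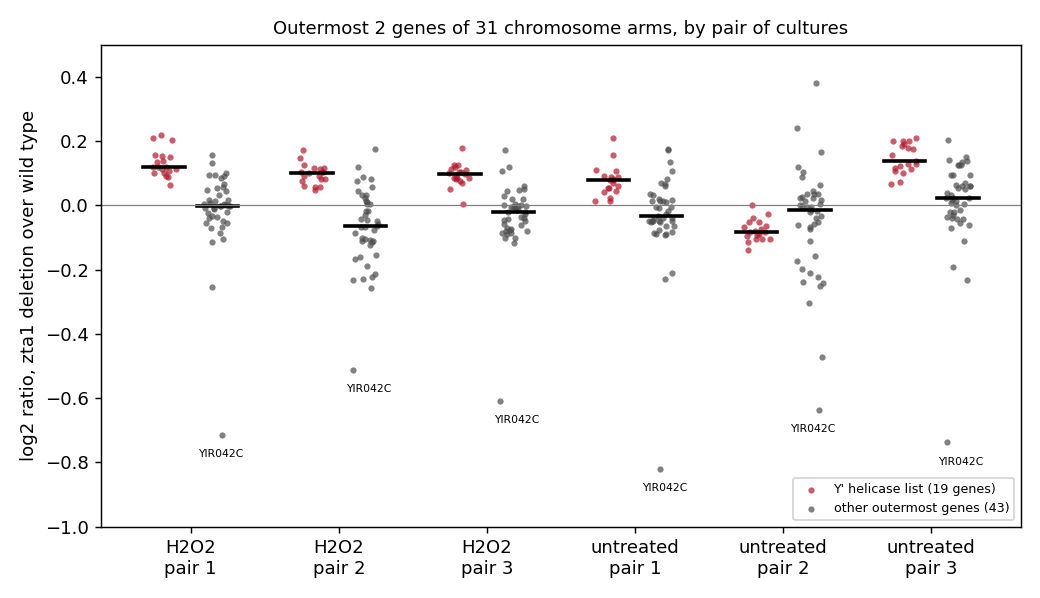
Each point is the log2 ratio (vertical axis, ∆zta1 over wild type) of 1 of the 62 outermost genes in 1 pair of cultures (horizontal axis), with the 19 Y′ genes left and the other 43 right in each pair, and bars are medians. The 19 Y′ genes lie above 0 in 5 pairs and below 0 in untreated replicate 2, and YIR042C is the lowest point in every pair.

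YHL050C, a Y′ gene at the end of the left arm of chromosome VIII, had the highest mean ratio of the 248 members in H2O2-treated cells. It was at 0.15, 0.17 and 0.18 in the H2O2-treated pairs, against 0.16, -0.0004 and 0.21 in the untreated pairs. Its means were 0.17 ± 0.014 and 0.12 ± 0.11 (SD, n = 3 each), and the limma adjusted p was 0.422 in H2O2-treated cells. Over both treatments its adjusted p in limma was 0.146 with all 6 pairs and 0.0106 without untreated replicate 2, where the mean ratio was 0.18. The dye orientations differed for this gene: in H2O2-treated cells it was at 0.061 with Cy5 on ∆zta1 and 0.28 with Cy3, and in untreated cells at 0.00078 and 0.24. The largest group with a shared record, 7 genes that include YRF1-1, YRF1-4, YRF1-5 and YRF1-8, averaged between 0.0998 and 0.125 in H2O2-treated cells and between 0.054 and 0.075 in untreated cells. A second group of 5, with YRF1-2, YRF1-3, YRF1-6, YRF1-7 and YPR204W, averaged between 0.078 and 0.102 and between 0.019 and 0.043. The 4 Y′ genes at ranks 3 to 8 (YBL111C, YFL066C, YFL064C and YPR202W) did not move with the 19. In H2O2-treated cells 1 of 4 had a mean above 0, while all 4 means were above 0 in untreated cells. In untreated replicate 2, where the 19 were below 0, YBL111C, YFL064C and YPR202W were at 0.011, 0.033 and 0.087. YFL066C was at -0.065 in that pair.

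Without the Y′ genes, the other 43 outermost genes had medians of -0.030 in H2O2-treated cells and -0.0074 in untreated cells, with 12 and 19 of 43 above 0. Their median minus that of the other 6 genes was 0.0068, -0.039 and -0.0041 in the H2O2 pairs and -0.037, 0.012 and 0.027 in the untreated pairs, on both sides of 0. At the first rank the 15 genes outside the Y′ list had medians of -0.030 in H2O2-treated cells and -0.013 in untreated cells, against 0.122 and 0.031 for the 16 Y′ genes at that rank. The positive first rank thus lay with the arms whose last measured gene is a Y′ gene. An unadjusted p under 0.05 was found for 8 of the 43 in H2O2-treated cells (18.6%), against 8.29% of all genes, and for 11 in untreated cells (25.6%), against 3.65%.

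Signs that held in all 6 pairs were more often negative among the members. Of 248, 17 were below 0 in every pair (6.86%), where 3.74% of all genes were, and 7 were above 0 in every pair (2.82%), where 3.09% were. The 17 included 3 oxidoreductases of alcohols and formate (BDH1, butanediol dehydrogenase; ADH7, an alcohol dehydrogenase; FDH1, formate dehydrogenase). They also included the arsenic genes ARR2, an arsenate reductase, and ARR3, an arsenite exporter, and the transporter genes GIT1, PDR18, SGE1 and SEO1. The rest were RDS1, YDR541C, IRC4, THI5, ERO1, MSC1, AIF1 and YIR042C. The 7 with positive ratios were MIX23, YBL111C, YFL068W, YFL067W, YOL162W, YOR389W and YPL278C, of which all but MIX23 lack a standard name. Of these genes only YIR042C passed in limma.

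SEO1, a putative permease gene at the end of the left arm of chromosome I, was at -0.26, -0.16 and -0.10 in the H2O2-treated pairs, against -0.23, -0.0036 and -0.23 in the untreated pairs. Its means were -0.17 ± 0.077 and -0.16 ± 0.13 (SD, n = 3 each). In H2O2-treated cells it was at -0.28 with Cy5 on ∆zta1 and -0.071 with Cy3, and in untreated cells at -0.24 and -0.074. It did not pass over both treatments in limma (adjusted p = 0.211), and it passed without untreated replicate 2, with a mean ratio of -0.20 and an adjusted p of 0.0118. MIX23, which encodes a protein of the mitochondrial intermembrane space, was at 0.18, 0.079 and 0.19 in the H2O2-treated pairs, against 0.15, 0.097 and 0.073 in the untreated pairs. All 6 were above 0, and the adjusted p in limma was 0.422 in H2O2-treated cells and 0.124 over both treatments. YDR541C, a putative reductase gene, averaged -0.090 ± 0.030 in H2O2-treated cells and -0.15 ± 0.054 in untreated cells (SD, n = 3 each), with an adjusted p of 0.125 over both treatments in limma. By dye it was at -0.15 in Cy5 and -0.029 in Cy3 in H2O2-treated cells, and at -0.22 and -0.086 in untreated cells. IRC4, of unknown function, averaged -0.11 ± 0.038 in H2O2-treated cells and -0.12 ± 0.039 in untreated cells (SD, n = 3 each). SEO1, MIX23, YDR541C and IRC4 thus kept 1 sign in every pair, at mean ratios much closer to 0 than that of YIR042C.

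A fit of all 12 arrays, which took dye as a term and let arrays of a pair correlate, called 4 members for the mean of both treatments where the pair means called 1, and 30 of all genes (0.536%). Beside YIR042C (adjusted p = 2.1e-07 in limma) these were MIX23, YDR541C and the Y′ gene YHL050C, with adjusted p of 0.0101, 0.0126 and 0.0413.

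For the difference between the treatments, 3 members (1.21%) had an unadjusted p under 0.05 in limma, about the share of all genes (1.27%). They were BAS1, the enolase-related gene ERR2 and YHL049C, and none passed after adjustment. BAS1, which encodes a transcription factor of purine and histidine synthesis genes, was at 0.098, 0.11 and 0.19 in the H2O2-treated pairs, against -0.0005, -0.17 and -0.015 in the untreated pairs. The groups did not overlap, though the share of all genes without overlap is not given here. The difference of 0.20 had an unadjusted p of 0.0077 and an adjusted p of 0.999 in limma. HXK1, hexokinase 1, was at -0.16, -0.46 and -0.82 in the H2O2-treated pairs, against -0.65, 0.82 and -0.23 in the untreated pairs. Its means were -0.48 ± 0.33 and -0.018 ± 0.76 (SD, n = 3 each). The H2O2 mean was the largest in size of the members in H2O2-treated cells after YIR042C, and it was -0.31 without H2O2 replicate 3. A mean ratio over 0.25 in size was found for 2 members in H2O2-treated cells (0.807%), where 0.393% of all genes had one, and for 4 members in untreated cells (1.61%), against 0.858%.

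Several genes near the arm ends were extreme in untreated replicate 2 and, HXK1 aside, in that pair alone. Below 0 there were LYS1 at -0.93, SRY1, a hydroxyaspartate dehydratase gene, at -0.93, YIL165C at -0.73, NIT1, a nitrilase gene, at -0.67 and YNR068C at -0.67. Above 0 were HXK1 at 0.82, MHT1 at 0.57 and MMP1 at 0.53. The last pair act together, MMP1 as the S-methylmethionine permease and MHT1 as the methyltransferase that uses it to make methionine. In the other 5 pairs these genes, HXK1 aside, lay between -0.21 and 0.19. They were picked out after their values were seen, and none of them passed in limma. The share of all genes as extreme in that pair is not given here.

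In H2O2-treated cells the other members with the same sign in all pairs and in either dye orientation were small as well. Of the genes above 0, AAD14, a putative aryl-alcohol dehydrogenase gene, averaged 0.12 ± 0.016 (SD, n = 3), and its untreated pairs lay between -0.086 and 0.080. Of the genes below 0, OPT1, which transports glutathione and oligopeptides, averaged -0.15 ± 0.10, and SAM3, the S-adenosylmethionine permease gene, averaged -0.14 ± 0.064 (SD, n = 3 each). Both lay further below 0 with ∆zta1 in Cy5 (-0.23 and -0.24) than with ∆zta1 in Cy3 (-0.067 and -0.045). ARR3 averaged -0.13 ± 0.084 and FDH1 -0.12 ± 0.13 (SD, n = 3 each), and without H2O2 replicate 2 they were at -0.078 and -0.050. OPT1 and SAM3 had untreated means near 0, at 0.0084 and -0.022. In untreated cells BDH1 averaged -0.14 ± 0.16 and AIF1, a mitochondrial cell death effector gene, -0.11 ± 0.11 (SD, n = 3 each). Without untreated replicate 2 these were -0.044 and -0.048.

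The gene families kept in the list showed no member past the threshold other than YIR042C, which is in none of them. The 6 measured aryl-alcohol dehydrogenase genes (AAD) had a median of 0.053 in H2O2-treated cells (5 of 6 above 0) and of 0.0039 in untreated cells (3 of 6). The 5 flocculin genes, for cell adhesion, had -0.048 (1 of 5) and 0.0089 (3 of 5). The 4 genes of the THI5 family, which makes the thiamine precursor, had -0.038 (0 of 4) and -0.0082 (2 of 4). For comparison, the medians of all genes tested were -0.0023 in H2O2-treated cells and 0.0005 in untreated cells.

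The 3 enolase-related genes ERR1, ERR2 and ERR3, copies with shared sequence, had a median of -0.041 in H2O2-treated cells (0 of 3 above 0) and 0.080 in untreated cells (3 of 3). The H2O2 value was set by replicate 2, whose median was -0.21, while replicates 1 and 3 had 0.058 and 0.0046. The 3 genes of the HSP31 family, named for a chaperone that also detoxifies methylglyoxal, had -0.048 in H2O2-treated and -0.070 in untreated cells, with 0 of 3 means above 0 in either treatment. Their medians in the H2O2 pairs were 0.013, -0.12 and -0.029, and all 3 genes were above 0 in replicate 1. The 14 genes of sugar and polyol use had -0.011 (6 of 14) and 0.022 (9 of 14). The 11 genes of metal, drug and arsenic transport had -0.043 (4 of 11) and -0.035 (1 of 11), where all 31 genes of that list on any arm had 0.0023 and -0.030.

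Genes that act on the arm ends from elsewhere had medians near 0. The 22 silencing factor genes, which include those of the Sir proteins, had a median of 0.0069 in H2O2-treated cells (13 of 22 above 0) and 0.0064 in untreated cells (17 of 22). SIR1, which helps to establish silencing at the silent mating loci, is itself a member and averaged 0.044 and -0.031. The 10 measured genes of telomerase and telomere maintenance had 0.033 (7 of 10) and 0.0071 (6 of 10). Both members from the silent mating locus HML had means between -0.014 and 0.026 over the treatments, and their sequence is shared with the active mating locus. The 7 genes specific to a cells had medians of -0.055 (1 of 7 above 0) and 0.0084 (4 of 7). The 5 specific to alpha cells had -0.092 (0 of 5) in H2O2-treated cells and 0.046 (4 of 5) in untreated cells. The untreated value of the alpha genes rests on replicate 2: the pair medians were -0.13, 0.14 and -0.016. In the H2O2 pairs their medians were -0.16, -0.14 and -0.0028, with 2 of 5 above 0 in replicate 3. Those of the a genes were -0.044, -0.13 and -0.013, with 3 of 7 above 0 in replicate 3. None of the genes in these lists passed in limma in any of the 4 comparisons.

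**Figure D4:**
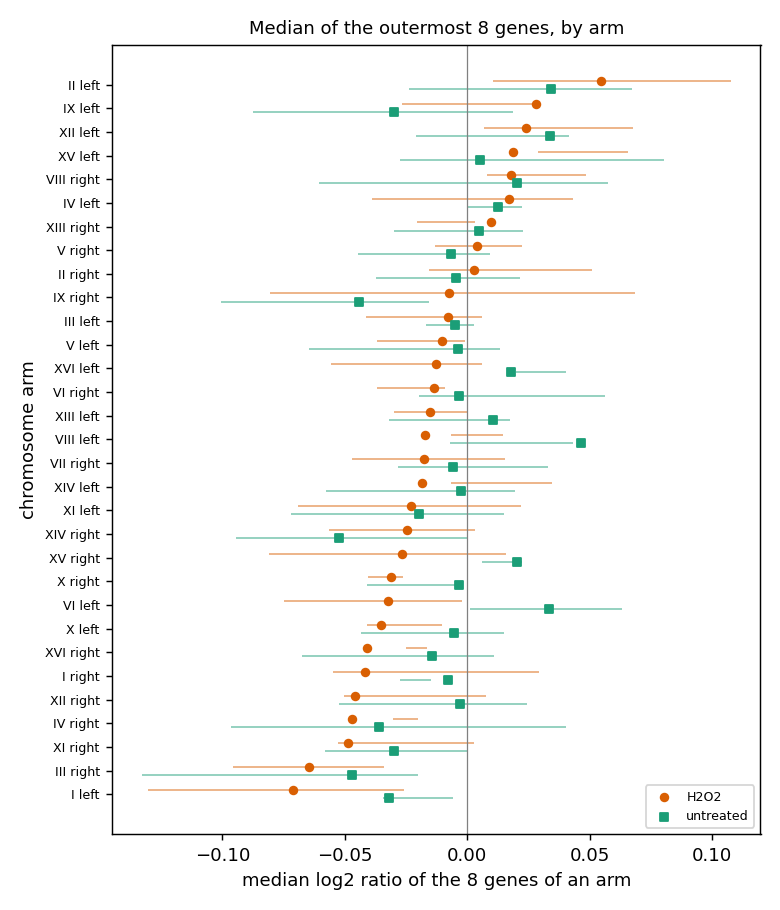
For each of the 31 arms (vertical axis, ordered by the H2O2 value) the point is the median over its 8 members of the mean log2 ratio of 3 pairs (horizontal axis), with H2O2-treated cells above untreated cells. Lines span the lowest to the highest of the 3 medians taken pair by pair, so a point can lie outside its line. Arm medians lie between -0.071 and 0.054, and most are below 0.

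Arm by arm, the medians of the 8 members were small and mostly negative. The sign depended on dye over all 248 members: their median was -0.033 in H2O2-treated and -0.021 in untreated cells with ∆zta1 in Cy5. With ∆zta1 in Cy3 it was 0.010 and 0.017. All genes had -0.0098 and -0.011 in Cy5, and 0.0002 and 0.0051 in Cy3. Arm medians were not taken by dye. In H2O2-treated cells 9 arms were above 0 and 22 below, between -0.071 on the left arm of chromosome I and 0.054 on the left arm of chromosome II. In untreated cells 11 were above 0 and 20 below, between -0.053 on the right arm of chromosome XIV and 0.047 on the left arm of chromosome VIII. The left arm of chromosome I, which holds SEO1 and BDH1, and the right arms of chromosomes III and X were below 0 in all 6 pairs, and 0 arms were above 0 in all 6. In untreated replicate 3 the left arm of chromosome I was at -0.0060 and the right arm of chromosome X at -0.0019. Sets of 8 genes from elsewhere were not counted for comparison. The right arm of chromosome IX, which ends in YIR042C, had medians of -0.0073 in H2O2-treated cells and -0.044 in untreated cells, and the untreated value was among the lowest of the 31 arms.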

How the data were processed

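The deposited values, per the file headers and labels, are log2 ratios of 12 Agilent two-colour arrays. They were made with limma per the submitters' processing notes, and background correction and normalisation are not given in the sources used here. The direction (∆zta1 over wild type, dye swaps already turned) was read from ZTA1, below 0 on all 12 arrays. Signal over background and depth are unknown. The 2 arrays of a pair are dye swaps of the same cultures, so the replicates are the 3 pairs in each treatment and not the arrays. Replicate 3 pairs follow the titles; the description of 1 array in each treatment says replicate 2.

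Of 6256 probes, 5620 had 1 gene in the platform annotation, 0 several and 636 none here, and probes of a gene (25 genes) were averaged. Names came from RefSeq assembly R64. The 2 arrays of a pair were averaged, and limma 3.58.1 in R 4.3.3 (lmFit, eBayes; residual df 4, prior df 4.6) was fitted to the 6 pair means of 5594 genes, after a test on simulated data. Replicate numbers did not pair the treatments (correlations -0.014, 0.031 and -0.273).

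Named members are those past the threshold, up to 8 per treatment and direction by mean ratio with 1 sign in all 3 pairs and either dye orientation, and list members. Members and lists were chosen with earlier results of these data known, and 3 entries of the lists were dropped after the data were seen. Alternatives covered centring, scaling, dye orientation, probes, the member rule, the model and leaving out pairs. No sequence is shown.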

Additional observations from a re-analysis of the deposited data

How the results depend on the processing

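YIR042C passed in limma under all 14 alternatives of centring, scaling, dye, probe choice, model and pairs left out, with ratios between -0.66 and -0.56 and a largest adjusted p of 0.0238 in H2O2-treated cells, between -0.78 and -0.69 (largest 0.0074) in untreated cells, and between -0.70 and -0.65 over both. Single dye orientations gave more calls. With ∆zta1 in Cy5 alone 47 members passed in H2O2-treated cells, 44 in untreated cells and 100 over both, and with ∆zta1 in Cy3 alone 18, 23 and 51. Of all genes, 929, 906 and 2063 passed in Cy5 alone and 420, 562 and 1477 in Cy3 alone. Members past in both orientations numbered 8, 11 and 31, of which 7, 10 and 29 had opposite signs in the 2 dyes. The others were YIR042C in either treatment, and YIR042C and MIX23 over both. The same overlap over all genes is not given here, so these counts cannot be read as particular to the members. Within a treatment, 21 results of named members passed only in an alternative, each in 1 dye orientation alone; the cause was not tested. The median of the other 6 genes changed sign with the dye, at -0.040 in Cy5 and 0.0062 in Cy3 in H2O2-treated cells and at -0.028 and 0.021 in untreated cells.

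The mean of both treatments gave 4 members with 12 arrays and a dye term, and 1 to 3 when a pair was left out. The 3 came without untreated replicate 2, where 22 of all genes passed (0.393%), against 11 to 14 genes without any other pair. Leaving out a pair kept 1 member in either treatment and 0 for the difference. The H2O2 median of the outermost 2 was 0.0023, and 0.072 when 8 genes an arm were taken before names were left out, 0.077 for the outermost gene alone, -0.030 without the Y′ genes and -0.022 with genes of a shared record averaged (the last 2 chosen after seeing the data). It lay between -0.014 and 0.017 with a pair left out, and the untreated median between -0.014 and 0.037. With the replicate number as a block, 1 member passed over both treatments and 0 for the difference. The absence of signal levels limits what a ratio near 0 shows of weakly expressed genes.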
